A study of Mus musculus with 12 samples.

Results

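The heat shock proteins, J-proteins and cytosolic chaperonin subunits were read in the striatum of male C57BL/6J mice, an inbred strain, after varenicline or saline given before ethanol drinking. Members were the genes whose symbols begin with Hsp and a family letter or digit, with Dnaja, Dnajb or Dnajc and a number, or with Cct and a number from 2 to 8, together with Tcp1. There were 84 members among the 24421 genes of the count table. Of these, 74 had at least 10 counts in 6 or more libraries and were tested, among 15111 genes that passed the same rule. The other 10 (Cct6b, Cct8l1, Dnajb7, Dnajb8, Dnajc5b, Dnajc5g, Dnajc22, Hspa1l, Hspb7 and Hspb9) had between 1 and 94 counts over all 12 libraries together. Among the 74 tested members, 3 matched by their letters only and are no chaperones of these families. They are Hspbp1, a nucleotide exchange factor for HSP70 proteins, Hspbap1, which binds a small heat shock protein, and Hspb11, a subunit of the transport machinery of cilia.

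The varenicline group (VAR, 6 libraries) came from mice injected with 2 mg/kg varenicline, a partial agonist of nicotinic acetylcholine receptors, and the saline group (SAL, 6 libraries) from mice injected with vehicle. Both groups drank 20% ethanol in a limited-access test in the dark phase, in sessions of 2 h that began 3 h after the lights went off. Over 3 cycles of 2 days, every mouse received saline in the first cycle, and the assigned injection preceded the second day's session by 30 min in the last 2 cycles; the striatum of both hemispheres was taken when the last session ended. Without a group that drank no ethanol among these libraries, what ethanol itself does to these transcripts was not analysed here. Age is not given in the labels, and whether a library is 1 mouse is not stated, so that p-values measure the spread between libraries, which may be partly technical.

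Molecular chaperones help other proteins fold, assemble and come apart. HSP70 proteins bind and release unfolded stretches in a cycle driven by ATP, J-proteins bring them their clients and start ATP hydrolysis, and exchange factors such as the HSP110 proteins reset the cycle. HSP90 acts later on kinases and steroid receptors, and the ring-shaped chaperonins enclose a client to fold it. In neurons the constitutive HSP70 protein also works with auxilin and cysteine string protein in the vesicle cycle of the synapse. Heat shock factor induces many of the cytosolic members together, while the unfolded protein response induces those of the endoplasmic reticulum.

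Libraries held 13340420 to 27917715 counts, with a mean of 19584990 ± 4307321 in VAR and 23324001 ± 5011872 in SAL (SD, n = 6 each; two-sided exact permutation p = 0.19). The difference in depth was larger without SAL 1. Levels below are CPM, that is counts scaled to a common library total after TMM adjustment, and 3 counts, the limit that a count of 0 allows, are worth 0.107 to 0.225 CPM depending on the library, which covers counting error only. All 14 markers of striatal projection neurons were detected, with sums of 7894 to 12800 CPM in VAR and 7346 to 11500 CPM in SAL. Markers of cortical excitatory neurons, which lie next to the striatum, moved with the groups: 13 of 14 were lower in VAR, 11 of them at an unadjusted p under 0.05, with sums of 469 to 1690 CPM in VAR and 1167 to 1961 CPM in SAL, and none was at 0. The mean log2 CPM of these markers was 3.56 to 4.96 in VAR 1 to 5, and VAR 6 stood apart from them at 5.89, inside the SAL range of 5.32 to 6.02. This mean is the cortical marker score used as a covariate below. Without VAR 6 it separates the groups completely, so a fit with it cannot tell cortical content from treatment. With VAR 6 in the fit, the overlap rests on that library alone. Of the 12 septal and pallidal markers 10 were tested, and these 10 were higher in VAR, 9 of them at an unadjusted p under 0.05. The projection neuron markers had 14 of 14 positive differences, oligodendrocyte markers 11 of 12 and astrocyte markers 11 of 12. In bulk tissue, fewer cells of a type and less RNA per cell cannot be told apart.

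No member passed the test between VAR and SAL. With edgeR's quasi-likelihood F test and Benjamini-Hochberg adjustment over all 15111 genes, 0 of 74 members had an adjusted p under 0.05, and the background share was 0% for all genes in either direction. At an unadjusted p under 0.05, 5 members exceeded SAL in VAR, beside 7.27% of all genes, and 5 lay below it, beside 9.64%. The higher ones were Dnajc2, Hspa14, Dnajb4, Hspa13 and Dnajc1, and the lower ones Dnajc6, Hspa12a, Hspbp1, Dnajb2 and Dnajb6. In all, 33 members had a positive and 41 a negative log2 fold change (VAR minus SAL), with a median of -0.011 beside 0.0074 for all genes tested. The smallest adjusted p was 0.132, for Dnajc6.

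The data were precise enough to bound most of these differences. The median standard error of a member's log2 fold change was 0.073, and for 51 of 74 members the 95% interval of the difference lay within 1.25-fold in both directions, as it did for 53.5% of all genes tested. No member had all 6 VAR libraries above or all 6 below the SAL libraries, where 0.43% of all genes had every VAR library higher and 0.324% every VAR library lower. In counts simulated from these libraries, the test recovered 40% of genes changed by 1.25-fold and 88% of those changed by 1.5-fold. The changed genes were drawn only from those above a floor in mean CPM, and each gene varied independently of the others. These rates therefore do not cover members of few counts, such as Hspb2, Hspb3, Dnajb3 and Dnajb13, or variation that genes share between libraries.

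**Figure D1:**
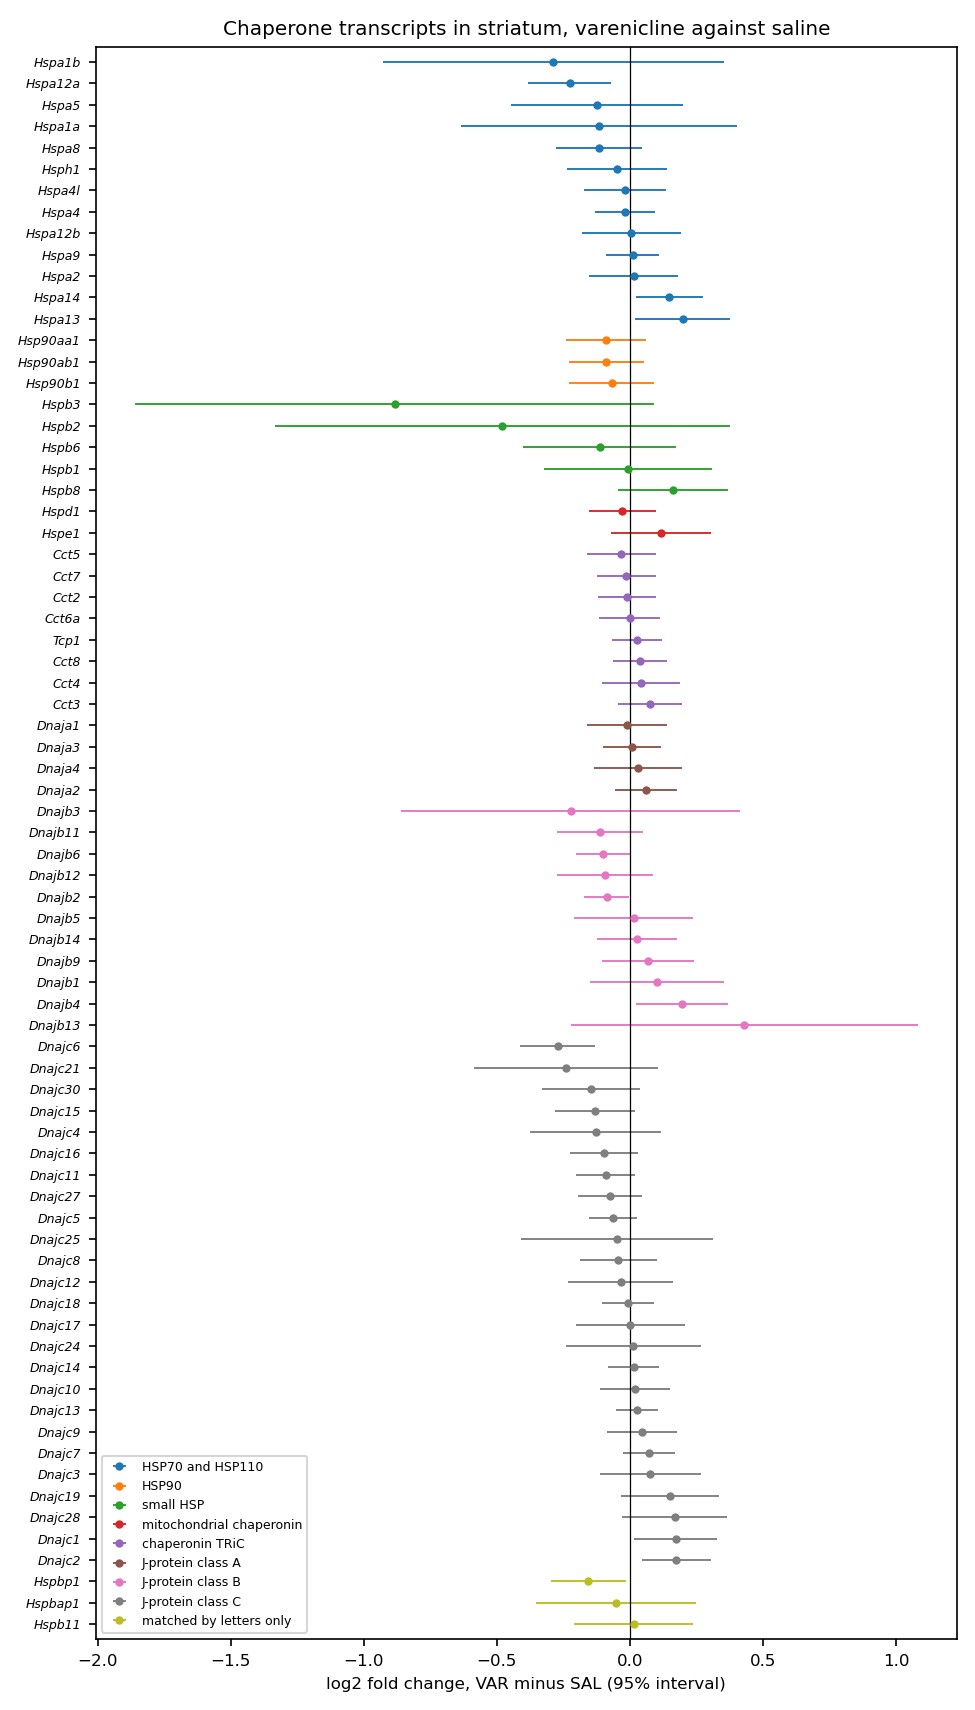
Log2 fold change (VAR minus SAL, horizontal axis) of the 74 tested members with its 95% interval from the edgeR fit, grouped by family in colour. Most points lie near 0, Dnajc6 has the clearest shift to the left, and the widest intervals belong to members with few counts such as Hspb3 and Hspb2.

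The members spanned a wide range of levels. Per kilobase of exon, Hspa8, the constitutive cytosolic HSP70 protein, had the highest level, 1037 CPM per kb over the 12 libraries. The cytosolic HSP90 proteins followed, Hsp90ab1 at 633 and Hsp90aa1 at 338 CPM per kb, and then the endoplasmic reticulum chaperones Hsp90b1 at 191 and Hspa5 at 131 and the exchange factor Hsph1 at 123 CPM per kb. Among J-proteins Dnajc7, a partner of both HSP70 and HSP90, was highest at 84.8 CPM per kb, just above the chaperonin subunit Cct5 at 79.3. The heat-inducible Hspa1a and Hspa1b stood far lower, at 1.26 and 1.83 CPM per kb. Hspa8, Hsp90ab1 and Hsp90aa1 together gave 40.8% of the members' counts in VAR and 42.0% in SAL. The summed level of all members was 11180 ± 797 CPM in VAR and 11650 ± 666 CPM in SAL (SD, n = 6 each), and the ranges overlapped, 10450 to 12590 CPM in VAR and 10980 to 12790 CPM in SAL.

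**Figure D2:**
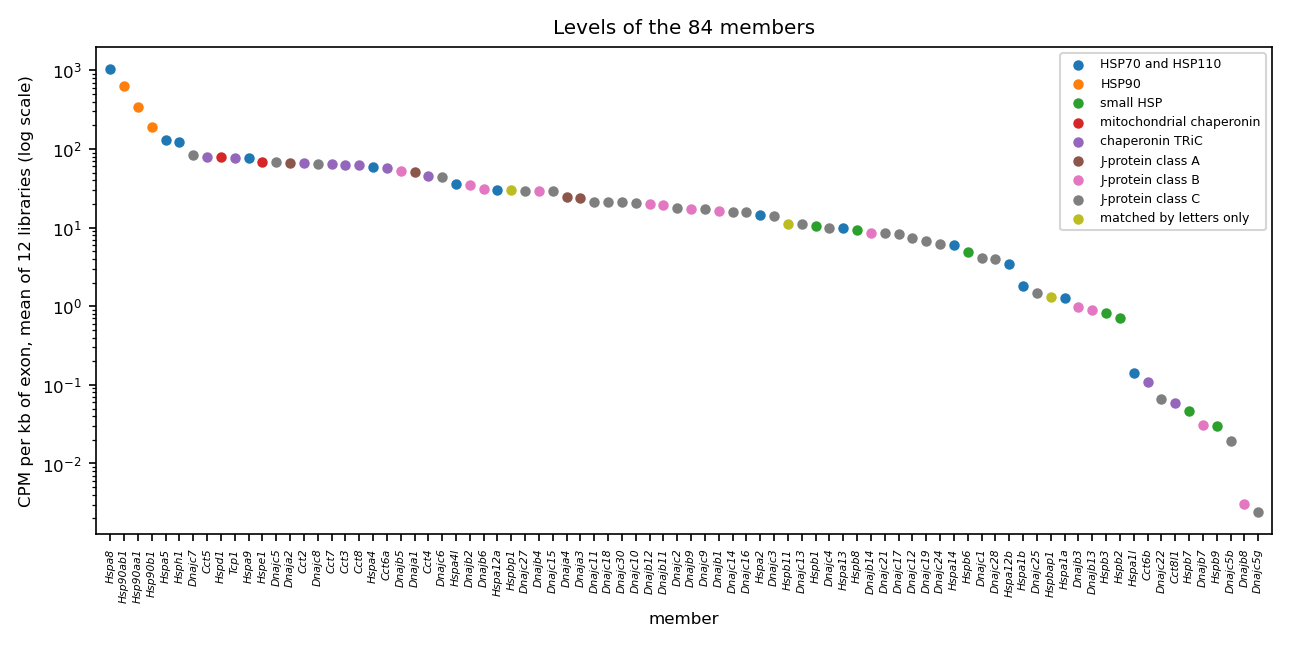
Mean level of each of the 84 members over the 12 libraries, in CPM per kb of exon on a log axis, ordered from high to low and coloured by family. Hspa8 at 1037 and the HSP90 genes lead, and the 10 members that were not tested make up the right end.

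Of the 13 tested HSP70 and HSP110 genes, 5 had positive and 8 negative differences, with a median of -0.020 on the log2 scale. Hspa8, the most abundant (chr9:40801273-40805199, plus strand, 9 exons, build mm10), ranged in VAR from 1885 to 2444 CPM with a median of 2068, and in SAL from 2053 to 2730 CPM with a median of 2205. The difference was -0.12 on the log2 scale (SE 0.077; edgeR adjusted p = 0.456), and the groups overlapped, with VAR 3, VAR 4 and VAR 5 below every SAL library. Without SAL 6, its highest library, the difference was -0.052. For Hspa8, 23.0% of the 150-base windows of its transcripts also occur in other genes, mostly pseudogenes, so its reads may be split among copies. Hspa5, the main HSP70 protein of the endoplasmic reticulum, was more variable, at 229.5 to 498 CPM in VAR and 283 to 442 CPM in SAL. Hspa9, its counterpart in mitochondria, averaged 235 ± 10.2 CPM in VAR and 233 ± 11.5 CPM in SAL (SD, n = 6 each), a log2 difference of 0.0099 with a 95% interval of -0.089 to 0.11.

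Hspa12a, a distant member of the HSP70 family (chr19:58795751-58860984, minus strand), had the smallest p of this family. Its level was 145 to 193.5 CPM in VAR with a median of 154, and 165 to 209.9 CPM in SAL with a median of 184. Of the VAR libraries 5 lay below every SAL library, and VAR 6 lay inside the SAL range at 193.5 CPM. VAR minus SAL was -0.23 on the log2 scale (SE 0.073; edgeR adjusted p = 0.161), and without VAR 6 it was -0.29 (SE 0.059; adjusted p = 0.0058). With the cortical marker score as a covariate it was -0.065 (SE 0.077; adjusted p = 0.998), and with the score and without VAR 6 it was -0.17 (SE 0.11; adjusted p = 0.560). Its relative Hspa12b, described in blood vessels, was at 10.2 ± 0.832 CPM in VAR and 10.2 ± 1.04 CPM in SAL (SD, n = 6 each).

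A pair of HSP70 genes stood among the members higher in VAR at an unadjusted p under 0.05. Hspa14, which with the J-protein Dnajc2 forms the ribosome-associated chaperone that meets nascent chains, was at 35.1 to 40.7 CPM in VAR (median 36.2) and 31.6 to 37.2 CPM in SAL (median 32.4). Of the SAL libraries, 5 lay below every VAR library, and SAL 4 did not. VAR minus SAL was 0.15 on the log2 scale (SE 0.059; edgeR adjusted p = 0.225). Dnajc2 itself (chr5:21757277-21785165, minus strand) was at 35.8 to 41.2 CPM in VAR (median 37.8) and 30.4 to 37.8 CPM in SAL (median 33.9). It differed by 0.17 (SE 0.061; adjusted p = 0.183), the smallest p among members higher in VAR. Hspa13, an HSP70-like ATPase of the endoplasmic reticulum membrane system, was at 40.2 to 48.6 CPM in VAR (median 43.2) and 30.8 to 42.5 CPM in SAL (median 39.8), a difference of 0.20 (SE 0.083; adjusted p = 0.248). Here SAL 4, SAL 5 and SAL 6 lay below every VAR library and the other SAL libraries among them.

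The stress-inducible HSP70 genes Hspa1a and Hspa1b lie close together on chromosome 17 and share 46.0% and 40.5% of their 150-base transcript windows with each other or with other genes, so their separate values are uncertain. Hspa1b was at 2.51 to 9.15 CPM in VAR (median 4.34) and 2.43 to 8.20 CPM in SAL (median 5.90). Hspa1a was at 1.91 to 6.28 CPM in VAR (median 2.98) and 2.67 to 4.74 CPM in SAL (median 3.59). VAR 1 was the highest of all 12 libraries for each. The log2 fold change was -0.29 (SE 0.30) for Hspa1b and -0.12 (SE 0.24) for Hspa1a, both well inside the spread within groups. Hsph1, Hspa4 and Hspa4l, the HSP110 exchange factors, differed by -0.049, -0.017 and -0.020 on the log2 scale, with standard errors between 0.053 and 0.088.

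All 3 HSP90 genes had negative differences, none past the test. Hsp90ab1, the constitutive cytosolic form, was at 1446 to 1706 CPM in VAR (median 1522) and 1513 to 1961 CPM in SAL (median 1584), a log2 fold change of -0.089 (SE 0.066; edgeR adjusted p = 0.513). Hsp90aa1, the inducible form, was at 851 to 1137 CPM in VAR (median 897) and 903 to 1080 CPM in SAL (median 1004), also -0.089 (SE 0.071; adjusted p = 0.544). Hsp90b1, the form of the endoplasmic reticulum, was at 475 to 607 CPM in VAR (median 506) and 472 to 622 CPM in SAL (median 535), a difference of -0.069 (SE 0.075; adjusted p = 0.672). SAL 6 held the highest Hsp90ab1 and Hsp90b1 of all libraries, and without SAL 6 their differences were -0.025 and -0.019. VAR 1 held the highest Hsp90aa1, and without it that difference was -0.15. For Hsp90aa1, 28.5% of transcript windows also occur in other genes.

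Of the 7 small heat shock proteins, ATP-independent holders of unfolding proteins, 5 were tested, 1 with a positive and 4 with negative differences. Hspb1 averaged 9.49 ± 1.56 CPM in VAR and 9.48 ± 2.30 CPM in SAL (SD, n = 6 each), and its highest value, 14.0 CPM, was in SAL 6. Of its transcript windows 39.1% also occur in other genes, among them a pseudogene of its own, so its counts are uncertain. Hspb8, which works with an exchange factor in selective autophagy, was at 14.8 to 21.4 CPM in VAR and 13.9 to 17.8 CPM in SAL, a log2 fold change of 0.16 (SE 0.097; edgeR adjusted p = 0.408). Hspb3, a muscle-associated small heat shock protein, had only 164 counts over all libraries. Its level was 0.167 to 1.26 CPM in VAR (median 0.277) and 0.474 to 1.09 CPM in SAL (median 0.883), with VAR 3, VAR 4 and VAR 5 near the limit set by 3 counts and VAR 6 above every SAL library. VAR minus SAL was -0.88 on the log2 scale (SE 0.46; adjusted p = 0.338), and without VAR 6 it was -1.49 (SE 0.40; adjusted p = 0.026). The cortical score turned its sign, to 0.075 (SE 0.42; edgeR adjusted p = 0.998), and with the score and without VAR 6 it was -0.46 (SE 0.72; adjusted p = 0.823). Hspb2, which overlaps Cryab on the opposite strand, had 152 counts and differed by -0.48 (SE 0.40).

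Hspd1 and Hspe1 encode the ring and the lid of the mitochondrial chaperonin and lie head to head on chromosome 1. Their annotated starts are 215 bases apart, and the stretch between them is shown because it is a promoter that the genes share and holds the heat shock element. It runs along the plus strand towards Hspe1 (chr1:55087933-55088147, build GRCm38.p6, RefSeq), with the alternating units of the element in capitals.
Hspd1 and Hspe1: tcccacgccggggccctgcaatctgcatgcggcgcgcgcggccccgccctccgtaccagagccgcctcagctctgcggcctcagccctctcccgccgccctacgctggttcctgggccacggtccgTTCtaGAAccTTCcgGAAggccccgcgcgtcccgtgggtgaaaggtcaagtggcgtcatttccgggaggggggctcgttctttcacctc
The element searched was GAANNTTCNNGAA or TTCNNGAANNTTC on either strand in the 250 bases before the start, and here 2 matches overlap. It was found in 3 of the 69 members with a promoter entry, Hspd1, Hspe1 and Dnajb6, and in 0.514% of 27025 genes. The Dnajb6 match lies within chr5:29735844-29735872, the stretch shown with flanking bases on each side.
Dnajb6: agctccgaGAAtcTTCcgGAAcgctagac
A match describes the letters and no occupied site, and a promoter without one may hold a looser form of the element.

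The differences of the chaperonin pair had opposite signs and neither passed the test. Hspd1 was at 159 to 206 CPM in VAR (median 179) and 170.2 to 196 CPM in SAL (median 185), a log2 fold change of -0.029 (SE 0.060; edgeR adjusted p = 0.845). Hspe1 was at 46.1 to 62.9 CPM in VAR (median 53.9) and 43.8 to 57.9 CPM in SAL (median 49.2), a difference of 0.12 (SE 0.089; adjusted p = 0.524). Across the 12 libraries their log2 levels had a Pearson correlation of 0.55 (permutation p = 0.063) and a Spearman correlation of 0.45 (permutation p = 0.149), and the Pearson value was 0.25 without VAR 6 and VAR 1. This pair was chosen after the promoter was seen. Of the transcript windows of Hspd1 and Hspe1, 16.1% and 6.64% also occur in other genes, which limits both values.

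The cytosolic chaperonin TRiC, a double ring that folds actin and tubulin, was even in level across its subunits. The 8 subunits found in this tissue (Tcp1, Cct2, Cct3, Cct4, Cct5, Cct6a, Cct7 and Cct8) had between 45.5 and 79.3 CPM per kb, within 2-fold of each other. Of the differences 4 were positive and 4 negative, and they ran from -0.033 for Cct5 to 0.076 for Cct3 on the log2 scale. Tcp1, which gave the complex its name, was at 181 to 206 CPM in VAR and 182 to 201 CPM in SAL. Its log2 fold change was 0.026, with a 95% interval of -0.068 to 0.12. Tcp1 overlaps Acat3 on the opposite strand, and 7.8% of its transcript windows and 8.27% of those of Cct6a also occur in other genes. The widest interval of the subunits was that of Cct4, -0.10 to 0.19, around a difference of 0.042. Summed, the family averaged 1116 ± 60.7 CPM in VAR and 1104 ± 39.7 CPM in SAL (SD, n = 6 each). The testis-associated Cct6b and the intronless Cct8l1 had 50 and 28 counts in all and were not tested.

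J-proteins, named for the domain that activates HSP70 ATPase, made up 40 of the tested members, 21 with positive and 19 with negative differences. The class A genes, closest to the bacterial prototype, differed little: Dnaja1 by -0.011, Dnaja2 by 0.059, Dnaja3 by 0.0066 and Dnaja4 by 0.030. Reads of Dnaja1 and Dnaja4 are shared in part with other genes, with 13.4% and 40.7% of their windows also found elsewhere.

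Of the 11 tested class B genes, 6 had positive and 5 negative differences. Dnajb1, the inducible partner of cytosolic HSP70, was at 41.2 to 75.4 CPM in VAR (median 51.0) and 44.6 to 56.3 CPM in SAL (median 50.5), a log2 fold change of 0.10 (SE 0.12; edgeR adjusted p = 0.696). VAR 1 and VAR 6 exceeded every SAL library and VAR 3 lay below them, and the SD was 12.45 CPM in VAR and 4.20 CPM in SAL. Dnajb4, its close relative, was at 74.5 to 101 CPM in VAR (median 88.0) and 67.3 to 86.8 CPM in SAL (median 77.5), a difference of 0.19 (SE 0.081; adjusted p = 0.245). VAR 1, VAR 2 and VAR 4 were above every SAL library.

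Dnajb2 and Dnajb6, J-proteins that keep misfolded proteins soluble in neurons, had lower means in VAR. Dnajb2 was at 107 to 112 CPM in VAR (median 108) and 110.0 to 122.5 CPM in SAL (median 115), a log2 fold change of -0.088 (SE 0.040; edgeR adjusted p = 0.279). Dnajb6, whose heat shock element is shown above, was at 111 to 126 CPM in VAR (median 115) and 116 to 132 CPM in SAL (median 125), a difference of -0.10 (SE 0.047; adjusted p = 0.295). In each the groups overlapped at 1 or more libraries. Of the Dnajb6 transcript windows 13.8% also occur in other genes. Dnajb13, a J-protein of the ciliary axoneme, had 260 counts, at 0.514 to 1.99 CPM in VAR and 0.571 to 1.16 CPM in SAL. Its highest level was in VAR 1, which also had the highest ependymal marker score of all libraries (mean log2 CPM 3.48), and VAR 6 had the lowest of each (score 2.04). The 10 markers of ependymal cells, which carry motile cilia, summed to 52.8 to 127 CPM in VAR and 58.5 to 95.9 CPM in SAL, none at 0, and their part in the Dnajb13 value was not tested.

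Dnajc6 encodes auxilin, the J-protein that brings Hspa8 to clathrin coats so that synaptic vesicles shed them. It had the smallest p of all members. The gene lies at chr4:101496648-101642799 on the plus strand with 22 exons, and no transcript window of it occurs in another gene. Its level was 191 to 250.5 CPM in VAR with a median of 219.9, and 245 to 282 CPM in SAL with a median of 268. Of the VAR libraries 5 lay below every SAL library, and VAR 2 lay above SAL 4 alone. The means were 221 ± 23.3 CPM in VAR and 267 ± 14.2 CPM in SAL (SD, n = 6 each), a log2 fold change of -0.27 (SE 0.066; 95% interval -0.41 to -0.13; edgeR adjusted p = 0.132).

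The call for Dnajc6 depended on the tool and on VAR 6. DESeq2 gave -0.27 with an adjusted p of 0.0163, and limma-voom with library weights gave -0.31 with an adjusted p of 0.0035. Without VAR 6, edgeR gave -0.30 (SE 0.066; adjusted p = 0.0101). With the cortical marker score as a covariate the difference was -0.11 (SE 0.066; adjusted p = 0.998), and with the score and without VAR 6 it was 0.00085 (SE 0.087; adjusted p = 0.997). Without VAR 6 the score separates the groups completely, so the last value cannot tell cortical content from treatment. Gak, the ubiquitous relative of auxilin and no member, differed by -0.091 (SE 0.053; edgeR adjusted p = 0.388).

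**Figure D3:**
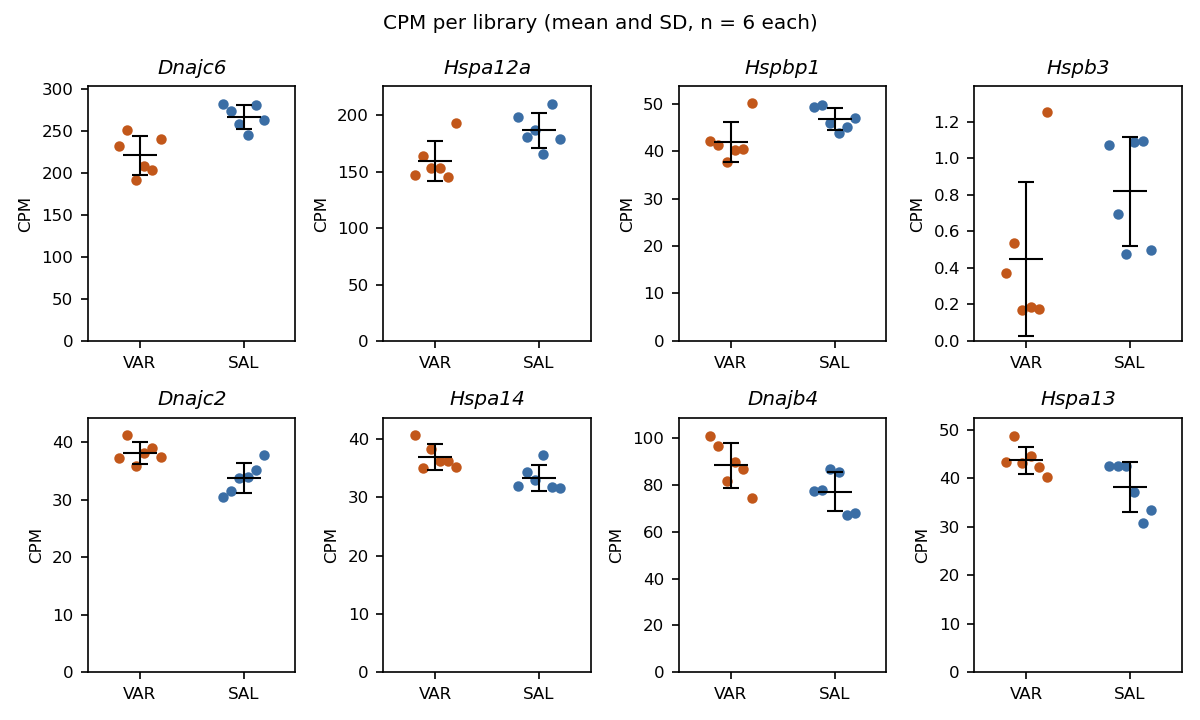
CPM in each library (points) with the group mean and SD (bars, n = 6 each), VAR left and SAL right, for 8 members, on axes that start at 0. Dnajc6, Hspa12a, Hspbp1 and Hspb3 in the upper row have lower VAR means with VAR 6 highest among the VAR points in 3 of them, and Dnajc2, Hspa14, Dnajb4 and Hspa13 in the lower row have higher VAR means, with overlap in every panel.

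The other members of the vesicle cycle list did not pass the test either. Dnajc5, cysteine string protein, which guards the release machinery on synaptic vesicles, was at 291 to 316 CPM in VAR (median 303) and 294 to 328 CPM in SAL (median 320.0). Its log2 fold change was -0.063 with a 95% interval of -0.15 to 0.027. Dnajc13, an endosomal J-protein, was the steadiest of all members, at 85.0 to 88.3 CPM in VAR and 82.3 to 88.8 CPM in SAL, a difference of 0.026 (SE 0.037).

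Of the 25 tested class C genes, whose members share little beyond the J domain, 12 had positive and 13 negative differences, with a median of -0.0074. Dnajc1, a J-protein of the endoplasmic reticulum membrane, was at 32.5 to 39.8 CPM in VAR (median 37.7) and 27.1 to 35.8 CPM in SAL (median 33.6), a log2 fold change of 0.17 (SE 0.073; edgeR adjusted p = 0.251). SAL 5 had the lowest value, 27.1 CPM, and stood apart from the other SAL libraries, and without it the difference was 0.12. Dnajc1 overlaps Mllt10 on the opposite strand, and the labels do not say whether counting used strand. Dnajc7 was at 197 to 210.0 CPM in VAR (median 199) and 179 to 212 CPM in SAL (median 189), a difference of 0.071 (SE 0.047; adjusted p = 0.454). Dnajc21, a factor of ribosome assembly, had the largest within-group spread of the class C members above 10 CPM, with 24.6 CPM in VAR 6 against 12.6 to 16.1 CPM in the other VAR libraries and 14.9 to 23.0 CPM in SAL.

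Of the 3 genes matched by letters only, Hspbp1 was at 37.6 to 50.04 CPM in VAR (median 40.8) and 43.8 to 49.6 CPM in SAL (median 46.4). Apart from VAR 6, the highest library of all for this gene, every VAR library lay below every SAL library. VAR minus SAL was -0.16 on the log2 scale (SE 0.066; edgeR adjusted p = 0.246), and without VAR 6 it was -0.21 (SE 0.054; adjusted p = 0.0196). Once the cortical score was added to the fit it was 0.0066 (SE 0.066; edgeR adjusted p = 0.998). With the score and without VAR 6 it was negative again, at -0.066 (SE 0.094; adjusted p = 0.805). Hspb11 and Hspbap1 differed by 0.014 and -0.053 with standard errors of 0.11 and 0.14.

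How many members pass thus moved with the tool and with VAR 6, along with the share of all genes. DESeq2 called 0 members higher and 1 lower (Dnajc6) of 68 with an adjusted p, beside 1.14% and 2.05% of all genes. Limma-voom called 1 higher (Dnajc2) and 5 lower (Dnajc6, Hspa12a, Hspbp1, Hspb3 and Dnajc21) of 74, beside 4.84% and 9.07%. Without VAR 6, edgeR called 0 higher and 4 lower (Dnajc6, Hspa12a, Hspbp1 and Hspb3), beside 3.06% and 7.58% of all genes. These shares of members were not above those of all genes.

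Once the cortical score entered the fit, edgeR called 0 members, beside 0.0794% of all genes in the higher and 0% in the lower direction. At an unadjusted p under 0.05 it then left 3 members higher, beside 2.96% of all genes, and 0 lower, beside 1.95%. Those 3 were Dnajb1 at 0.37 (SE 0.12), Dnajb5 at 0.28 (SE 0.087) and Dnajc1 at 0.24 (SE 0.096), each at an adjusted p of 0.797 or more. None of the 5 members lower at an unadjusted p under 0.05 without the covariate was lower at that level with it. With the score and without VAR 6, 6 members were higher, beside 5.23% of all genes, and 2 lower, beside 5.19%, with 0 called, as for 0% of all genes. Without VAR 6 the score separates the groups, so these counts cannot tell cortical content from treatment.

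The list called heat-inducible held 10 members that heat shock factor is known to raise, among them Hspa8 and Hspd1, which are also abundant without stress. Of these 10, 2 had positive and 8 negative differences, with a median of -0.039 and none at an unadjusted p under 0.05. The endoplasmic reticulum list of 11 had 6 positive and 5 negative differences with a median of 0.019, and 2 of 11, Hspa13 and Dnajc1, were higher at an unadjusted p under 0.05, beside 7.27% of all genes. The mitochondrial list of 8 was split 4 and 4, between -0.15 for Dnajc30 and 0.15 for Dnajc19. All genes tested had a median of 0.0074, so each of these lists lay within 0.1 of the background.

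Some members of the heat-inducible list varied together with Hsph1 between libraries, Hspa8 most closely, while Hspa1a, Dnajb1 and Hspe1 did not pass. Over the 12 libraries the log2 level of Hsph1 was compared with 9 other members of the list and that of Hspa5 with 10 members of the endoplasmic reticulum, and with the chaperonin pair this made 20 correlations, adjusted together. For Hsph1, 6 of 9 had an adjusted permutation p under 0.05 by Pearson's r, at r of 0.69 or more. Of the 15110 other genes tested, 1.11% had an r with Hsph1 at least as high, and their median r was 0.0037. Hspa8 had the highest, r = 0.90 (permutation p = 0.00007, adjusted p = 0.001; Spearman rho = 0.85, permutation p = 0.00096, adjusted p = 0.0064). Dnaja1 had r = 0.86 (permutation p = 0.00034, adjusted p = 0.00136) and rho = 0.78 (permutation p = 0.00447, adjusted p = 0.0149). Hspb1 had r = 0.86 (permutation p = 0.00025, adjusted p = 0.00125) and rho = 0.80 (permutation p = 0.00288, adjusted p = 0.0115). With the group means removed these 3 correlations were 0.92, 0.86 and 0.87. An r as high as theirs was reached by 0.0794%, 0.152% and 0.159% of the other genes. Hspb1 and Hspa8 share 39.1% and 23.0% of their windows with other genes, which limits both values. The cortical score also differed between libraries, and its part in these relations was not tested.

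The libraries VAR 1 and SAL 6 lay farthest from the median of Hsph1, and without them r was lower for every listed member but Hspe1. Without that pair r was 0.78 for Hspa8, 0.74 for Dnaja1 and 0.67 for Hspb1, levels reached by 0.324%, 0.582% and 1.35% of the other genes. Hspd1 had r = 0.79 (permutation p = 0.00201, adjusted p = 0.0067) and rho = 0.85 (permutation p = 0.00089, adjusted p = 0.0064), and r was 0.74 without them. Of the Hspd1 windows 16.1% are shared with other genes. Hspa1b and Hsp90aa1 had r = 0.72 (permutation p = 0.00855, adjusted p = 0.0244) and r = 0.69 (permutation p = 0.0122, adjusted p = 0.0306), but rho of 0.66 (permutation p = 0.0234) and 0.65 (permutation p = 0.0258) each missed the threshold at an adjusted p of 0.0644. Both were at r = 0.48 without VAR 1 and SAL 6. Leaving out those libraries also narrows the range of Hsph1, and whether these relations rest on them was not tested. Without that pair, 7.27% and 7.38% of the other genes had an r at least as high. Hspa1a, Dnajb1 and Hspe1 did not pass, at r = 0.63, 0.57 and 0.26. Without VAR 1 and SAL 6, r was lower for Hspa1a and Dnajb1, at 0.47 and 0.41, and higher for Hspe1, at 0.56.

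VAR 1 was the highest VAR library for 10 of 10 heat-inducible members and SAL 6 the highest SAL library for 5 of 10. Both libraries were singled out by their level of Hsph1, itself among the 10, so these counts are not independent of that choice. Over all genes tested VAR 1 was the highest of VAR for 19.5% and SAL 6 the highest of SAL for 26.1%, and over the 74 members for 33 and 22. VAR 1 had the fewest counts, 13340420, and SAL 6 had 22625000. VAR 1 also had the highest ependymal score of VAR and SAL 6 that of SAL (2.95), and the choroid plexus score was 4.55 in VAR 1 and 1.99 in SAL 6. The part of depth and of these cells in the levels was not tested. Leaving out both libraries, 0 members were called.

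**Figure D4:**
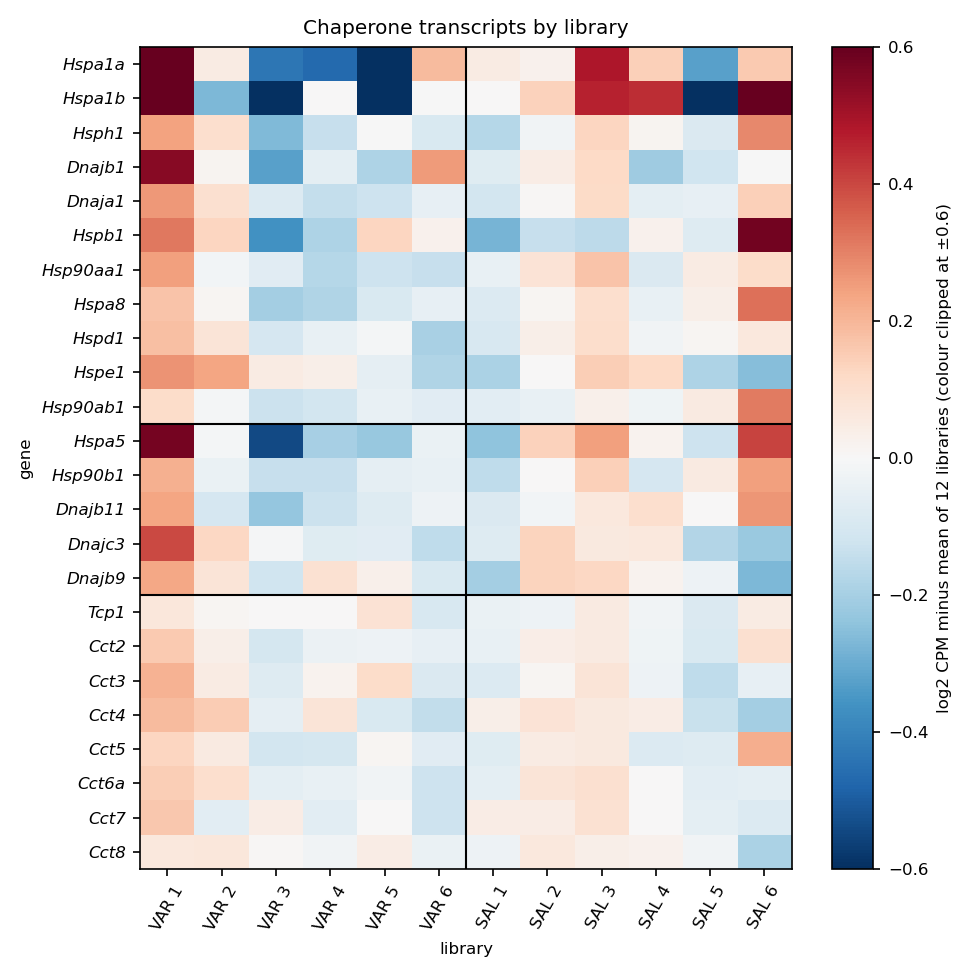
Log2 CPM of each gene in each library minus the gene's mean over the 12 libraries, colour from blue (lower) to red (higher), clipped at 0.6 in each direction, with VAR 1 to 6 left of SAL 1 to 6. The upper block holds the list called heat-inducible and Hsp90ab1, and the lower block TRiC. The middle block holds only part of the endoplasmic reticulum list (Hspa5, Hsp90b1, Dnajb11, Dnajc3 and Dnajb9). VAR 1 is above 0 in every row shown, SAL 6 is red in many rows of the upper and middle blocks, and VAR 3 is blue in most. In the rest of the endoplasmic reticulum list, Dnajb12, Dnajb14 and Dnajc16 were lowest of all 12 libraries in VAR 1. Dnajc10 was also below its mean there, and Hspa13 and Dnajc1 were above theirs.

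In the endoplasmic reticulum, 2 of 10 members varied together with Hspa5 across libraries, at r of 0.87 or more, which 0.113% of the 15110 other genes reached. Dnajb11, the lumenal J-protein partner of Hspa5, had r = 0.91 (permutation p = 0.0001, adjusted p = 0.001) and rho = 0.83 (permutation p = 0.00131, adjusted p = 0.00655). Hsp90b1 had r = 0.87 (permutation p = 0.00016, adjusted p = 0.00107) and rho = 0.85 (permutation p = 0.00077, adjusted p = 0.0064). Without VAR 1 and VAR 3, the libraries farthest from the median of Hspa5, r was 0.83 and 0.85. The other 8 of 10 pairs did not pass, with r between -0.28 for Dnajc16 and 0.44 for Dnajc3. Dnajc3, an inhibitor of a stress kinase that also acts as a lumenal J-protein, had its highest level in VAR 1, at 95.8 CPM, and its lowest in SAL 6, at 62.5 CPM.

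The promoters of Hspa5, Hsp90b1 and Dnajc3 hold the endoplasmic reticulum stress element searched here, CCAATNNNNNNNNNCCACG on either strand in the 250 bases before the start, and are shown because Hsp90b1 varied with Hspa5 across libraries, while the relation of Dnajc3 to Hspa5 did not pass. It begins with a CCAAT box, and it was found in these 3 of 69 members and in 0.13% of all 27025 genes. The sequences follow the strand of each gene, with the ends of the element in capitals (RefSeq, build GRCm38.p6). The intervals are chr2:34772020-34772048 on the plus strand for Hspa5, chr14:118937822-118937850 on the plus strand for Dnajc3, and chr10:86705633-86705661 and chr10:86705528-86705556 on the minus strand for Hsp90b1.
Hspa5: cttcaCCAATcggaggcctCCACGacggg
Dnajc3: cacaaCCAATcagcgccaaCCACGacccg
Hsp90b1, far: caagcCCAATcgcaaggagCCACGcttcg
Hsp90b1, near: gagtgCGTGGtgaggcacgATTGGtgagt
The near match of Hsp90b1 is read on the other strand. Dnajb11 held a CCAAT box, as 37.5% of all genes did, and no match to the element in this window.

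**Figure D5:**
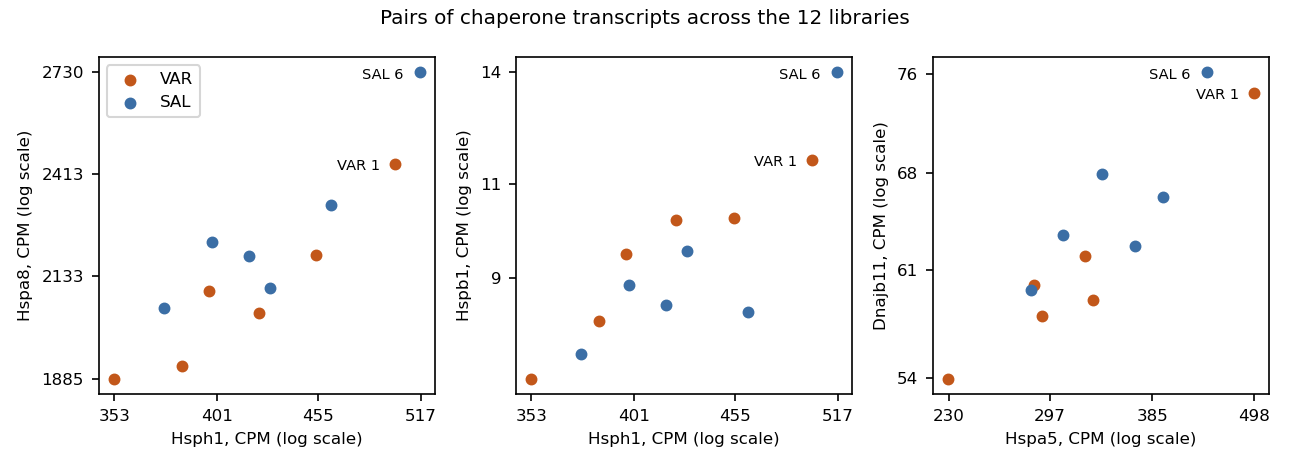
Level of Hspa8 and of Hspb1 against Hsph1, and of Dnajb11 against Hspa5, 1 point per library in CPM on log axes, VAR in orange and SAL in blue. Points of both groups follow the same rising trend in each panel, with r of 0.90, 0.86 and 0.91, and VAR 1 and SAL 6 sit at the upper right.

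Members with large differences between libraries of the same group were few. Of the 59 members at or above 10 CPM, 4 had a within-group SD above 0.2 on the log2 scale, Dnajc21 at 0.32, Hspa5 at 0.31, Dnajb1 at 0.24 and Dnajb5 at 0.21, against 14.7% of all genes of that level. Dnajc13 had the smallest at 0.0295.

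Around these families, the regulators and co-chaperones that are not members gave no call either. Of 4 heat shock factor genes, 1 had a positive and 3 negative differences, and Hsbp1, a small protein that binds heat shock factor, was lower at an unadjusted p under 0.05, with 163 ± 7.66 CPM in VAR and 177.5 ± 5.19 CPM in SAL (SD, n = 6 each) and a log2 fold change of -0.12 (SE 0.043; edgeR adjusted p = 0.185). Hsf1, the main inducer, was at 44.9 ± 2.25 CPM in VAR and 45.5 ± 2.15 CPM in SAL, a difference of -0.019 (SE 0.052). Of 38 co-chaperone and prefoldin genes, 16 differences were positive and 22 negative, and an unadjusted p under 0.05 was reached by 1 higher and 2 lower genes. Fkbp5, an HSP90 co-chaperone of steroid receptors that glucocorticoids induce, was at 56.7 ± 6.68 CPM in VAR and 46.1 ± 3.80 CPM in SAL (SD, n = 6 each), a difference of 0.29 (SE 0.079; adjusted p = 0.139). Cdc37, the HSP90 co-chaperone for kinases, differed by -0.16 (SE 0.061; adjusted p = 0.199) and Bag1, an HSP70 exchange factor, by -0.15 (SE 0.065; adjusted p = 0.260).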

How the data were processed

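The authors deposited raw counts per gene. The submitters' processing notes name the build mm10 and, in no stated order, the tools TopHat2, featureCounts, Trimmomatic, FastQC, Cuffnorm, Cuffdiff and DESeq2; their versions, the annotation and the use of strand are not stated there. Labels' protocols give RNeasy extraction, TruSeq libraries and single reads of 150 nt. The deposited FPKM values and the deposited signal of scaled counts by Cuffnorm served as alternatives.

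Genes with at least 10 counts in 6 or more libraries were tested with edgeR 4.0.16 (TMM, quasi-likelihood F test, R 4.3.3), Benjamini-Hochberg over all of them, threshold 0.05. Positions and exon lengths are those of the count table. Replicate numbers follow accession order and pair nothing. Alternatives were other size factors and filters, DESeq2 1.42.0, limma 3.58.1 (voom with weights, and log2 of FPKM plus 1 or 0.1 or of the Cuffnorm value plus 1), a cortical marker score as covariate, and each library left out. Leaving out VAR 1 with SAL 6 was chosen after seeing the data. Correlations used log2 CPM (prior count 2) and 100000 permutations.

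Members and lists were chosen with earlier results of these data known. Named are the 10 members per direction with the smallest p, core members of each family, and up to 4 genes per pathway list; Dnaja2, Dnaja3, Dnaja4, Dnajb3, Dnajb5, Dnajb11, Dnajc3, Dnajc13, Dnajc21, Hspa4, Hspa4l, Hspa12b, Hspb2, Hspb11, Hspbap1 and Gak were added to complete a family or after their values were seen. Shared transcript windows were counted over GENCODE vM21 transcripts. No pair of libraries agreed within sampling noise (lowest chi-square per degree of freedom 5.9 over 66 pairs). On simulated data of 15111 genes, drawn independently for each gene, edgeR made 2 false calls, and 0 with no gene changed.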

Additional observations from a re-analysis of the deposited data

Results flagged for a closer look

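Of 88 sets of 6 libraries examined for a library set apart from the rest of its group, 8 held one, where chance gives about 1 in 20, or 4.4. These are values in log2 CPM. SAL 6 was high for Hsp90ab1 at 10.94, against 10.56 to 10.68 in the other SAL libraries, and for Hspb1 at 3.817, against 2.96 to 3.264. SAL 6 was low for Dnajc19 at 3.716, against 4.167 to 4.249, and for Cct8 at 7.05, against 7.211 to 7.304. VAR 1 was high for Hsp90aa1 at 10.15, against 9.733 to 9.889 in the other VAR libraries, and for Hsp90b1 at 9.245, against 8.892 to 8.993. SAL 5 was low for Dnajc1 at 4.763, against 5.041 to 5.164. VAR 6 was high for Dnajc11, a mitochondrial J-protein, at 6.094, against 5.844 to 5.922.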

How the results depend on the processing

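Called members numbered 0 under other size factors and filters, the FPKM and Cuffnorm values, the cortical score with or without VAR 6, and without VAR 1 and SAL 6 together. DESeq2 called 1 and limma-voom 6, and leaving out 1 library gave 0 to 4, with the 4 only without VAR 6. Members higher at an unadjusted p under 0.05, 5 as reported, were 3 with the cortical score, 3 without VAR 1 and SAL 6 together, and 2 to 6 with 1 library left out. Those lower, also 5, were 3 with upper-quartile factors, 3 without a filter, 10 with limma-voom, 0 with the cortical score, 2 with the score and without VAR 6, and 2 to 9 with 1 library left out. The difference in library totals was -5595728 to -2490097 counts with 1 library left out, and passed the exact permutation test only without SAL 1.

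Of 1056 log2 differences of 44 named members under alternatives, 970 kept their direction and side of the threshold, 10 newly passed it and 76 changed sign; none that changed sign passed the test there, and the cause was not tested. With the cortical score the changed values were -0.11 for Dnajb13, 0.0066 for Hspbp1, 0.075 for Hspb3, 0.0035 for Dnajc11, 0.055 for Hspa5, -0.010 for Hspa9, 0.24 for Hspa1a, -0.049 for Hspa2, 0.018 for Hspb1, 0.032 for Dnaja1, -0.030 for Tcp1 and 0.015 for Cct2. With the score and without VAR 6 they were -0.043 for Dnajc7, 0.00085 for Dnajc6, 0.013 for Dnajb6, 0.31 for Hspa5, 0.53 for Hspa1a, 0.31 for Hspa1b, -0.061 for Hspa2, 0.10 for Hsph1, 0.083 for Hsp90aa1, 0.025 for Hsp90b1, 0.056 for Hspb1, 0.13 for Hspd1, 0.15 for Dnaja1, 0.035 for Dnajc5, 0.047 for Cct5, 0.050 for Cct7, 0.11 for Cct2 and 0.15 for Cct6a. Hspb1 was 0.071 with limma-voom, 0.014 and 0.015 on log2 FPKM plus 1 and plus 0.1, 0.011 on the Cuffnorm values and 0.078 without VAR 1 and SAL 6 together, where Dnajb1 was -0.00021 and Cct4 -0.022. Cct2 was 0.00036 on log2 FPKM plus 1 and on log2 FPKM plus 0.1. Cct6a was 0.0018 with median-ratio factors, 0.0055 with upper-quartile factors, 0.0027 without a filter, 0.0014 with DESeq2, 0.0070 on log2 FPKM plus 1, 0.0071 plus 0.1 and 0.0028 on the Cuffnorm values.

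With 1 library left out, sign changes gave ranges of -0.010 to 0.039 for Hspa9, -0.36 to 0.00057 for Hspa1a, -0.019 to 0.090 for Hspa2, -0.11 to 0.012 for Hsph1, -0.070 to 0.14 for Hspb1, -0.070 to 0.0053 for Hspd1, -0.011 to 0.17 for Dnajb1, -0.069 to 0.022 for Dnaja1, -0.063 to 0.016 for Cct5, -0.049 to 0.0088 for Cct7, -0.043 to 0.014 for Cct2 and -0.031 to 0.024 for Cct6a. Correlations changed by at most 0.0023 with a prior count of 0.5. No paired analysis was possible because the labels give no shared replicate numbers. Depth limits the members of few counts, Hspb2, Hspb3, Dnajb3 and Dnajb13 among those tested.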
